A study of Mus musculus with 6 samples.

Results

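The genes described here build cholesterol and fatty acids in the cell: the enzymes of the sterol and fatty acid pathways and the proteins that set their output. The list was written as 36 gene symbols, and 35 of them had a probeset annotated with that symbol alone, among 19938 genes measured in this way. Acat2, an acetyl-CoA acetyltransferase, was not analysed here. For the 4 genes with more than 1 such probeset, the brightest on average was taken. The genes fall into 5 roles: 6 enzymes of the mevalonate steps, 11 enzymes from squalene to cholesterol, 6 proteins of sterol sensing and transport, 5 genes of fatty acid synthesis and 7 desaturases and elongases.

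Cholesterol synthesis starts from acetyl-CoA, passes through mevalonate and isoprenoid units to squalene, and ends after the sterol rings are closed and trimmed. Its genes are switched on by SREBP transcription factors, which the escort protein Scap carries out of the endoplasmic reticulum when sterols are low and which Insig proteins hold back when sterols are high. Fatty acids are built from the same acetyl-CoA by carboxylation and repeated condensation, and are then lengthened by elongases and given double bonds by desaturases.

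The cells were E14 mouse embryonic stem cells, an established line, kept with leukemia inhibitory factor in serum medium on primary fibroblasts that mitomycin C had stopped from dividing. Control cells received no compound, VPA cells received 0.5 mM valproic acid and NaBu cells received 0.2 mM sodium butyrate, and the labelled treatment time was 16 h in all 3 groups. Valproic acid and butyrate are short-chain fatty acids that inhibit histone deacetylases, and their doses differed. Total RNA of each sample was read on an Affymetrix array, with 2 arrays per group, numbered 1 and 2 in every group.

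Values are log2 expression as deposited, so that a difference of 1 is a 2-fold change, and a gene was called where the adjusted p of limma, a linear model with moderated variances, was under 0.05. The labels do not say that the 2 samples of a group were separate cultures, so p-values measure only the spread between these samples, which may be technical. The 3 arrays numbered 1 are called set 1 and the 3 numbered 2 are called set 2, and what the numbers stand for is not known. The median gene lay between 5.71 and 5.79 on every array, and all 35 genes lay at or above the median level of all genes. On each array 8 markers of embryonic stem cells, among them Pou5f1 and Nanog, had a mean between 11.07 and 11.50. The mean of 14 fibroblast markers was between 6.48 and 6.65 in set 1 and between 7.10 and 7.39 in set 2. The summed intensity of those 14 markers was 1835.5 to 2089.8 in set 1 and 3374.3 to 4331.9 in set 2, so the sets did not overlap. A further 10 markers of extraembryonic endoderm had a mean between 5.02 and 5.11 in set 1 and between 5.18 and 5.19 in set 2, and their summed intensity was 444.7 to 534.3 and 639.6 to 716.4. That mean lay below the median gene, and the markers did not move together. Between the sets 5 stood higher and 5 lower in set 2, from Afp (-0.31) to Pdgfra (0.81), with a median difference of -0.02. The arrays read RNA of the whole dish, in which fewer cells of a type and less RNA per cell cannot be told apart.

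The start regions of these genes were searched for short motifs that SREBP and its partners are known to use. A table of RefSeq promoters (GRCm38.p6) was matched to 28 of the 35 genes, and the 250 bases before the annotated start were read on both strands. Fdps, Fdft1, Sqle, Stard4, Scd1, Scd2 and Fads1 were not searched here, which leaves out 3 of the 4 genes that were called between the replicate sets. The sterol response element in the form TCACNCCAC stood before 1 of the 28 genes, Hmgcs1, against 1.22% of the 27025 genes in that table. The NF-Y motif CCAAT stood before 23 of the 28 genes (82.1%), against 37.5% of all genes in the table and 38.8% of the 15614 that were also measured here. The Sp1 motif GGGCGG stood before 22 of the 28 genes (78.6%), against 35.4% and 49.3%. All 35 genes lay at or above the median level of all genes, and the motif shares were not computed for such genes alone. A match is a description of the letters and not a bound site, and other forms of the sterol response element were not searched.

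Of these regions 4 are printed here, 5′ to 3′ on the strand of the gene, with the 3 motifs in capitals on either strand (CCGCCC and ATTGG are GGGCGG and CCAAT read on the other strand). Hmgcs1 at chr13:119690101-119690350 on the plus strand was chosen as the gene with the sterol response element (TCACCCCAC). Insig1 at chr5:28071162-28071411 on the plus strand belongs to the genes that differed between the replicate sets. Tm7sf2 at chr19:6067851-6068100 and Fasn at chr11:120824548-120824797, both on the minus strand, had the highest and the lowest difference with VPA. In the Fasn region a CCAAT and an ATTGG overlap in CCAATTGG.
Hmgcs1: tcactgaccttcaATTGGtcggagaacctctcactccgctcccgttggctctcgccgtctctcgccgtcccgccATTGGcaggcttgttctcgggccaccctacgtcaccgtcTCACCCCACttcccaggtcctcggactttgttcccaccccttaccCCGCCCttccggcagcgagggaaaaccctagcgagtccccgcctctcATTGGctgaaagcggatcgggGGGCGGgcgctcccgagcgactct
Insig1: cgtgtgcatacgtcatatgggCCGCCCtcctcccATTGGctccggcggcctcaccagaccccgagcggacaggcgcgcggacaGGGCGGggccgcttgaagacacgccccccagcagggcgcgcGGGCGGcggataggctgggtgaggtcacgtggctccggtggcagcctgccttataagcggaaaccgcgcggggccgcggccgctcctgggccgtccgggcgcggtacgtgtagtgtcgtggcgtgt
Tm7sf2: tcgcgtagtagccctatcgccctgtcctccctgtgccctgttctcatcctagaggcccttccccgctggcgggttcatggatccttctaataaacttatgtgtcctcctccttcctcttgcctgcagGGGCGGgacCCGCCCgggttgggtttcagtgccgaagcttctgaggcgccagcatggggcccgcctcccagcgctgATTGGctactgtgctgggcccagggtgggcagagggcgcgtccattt
Fasn: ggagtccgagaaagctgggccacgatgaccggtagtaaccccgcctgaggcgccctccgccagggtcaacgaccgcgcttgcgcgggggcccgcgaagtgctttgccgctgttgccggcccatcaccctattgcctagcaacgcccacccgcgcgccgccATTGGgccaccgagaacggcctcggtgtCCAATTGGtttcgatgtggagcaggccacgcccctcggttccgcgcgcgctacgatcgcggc

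With VPA no gene of the group passed the test. The values that stood farthest below the control were those of Fasn, Elovl6 and Idi1, and those farthest above were Tm7sf2, Insig2 and Dhcr7. In every role some genes stood above the control and some below it. The median difference over the 35 genes was 0.06 on the log2 scale, against 0.01 for all 19938 genes. limma called 0 of the 35 genes, and 0% of all genes, at an adjusted p under 0.05, also with the replicate number as a block. At an unadjusted p under 0.05 the counts were 2 of 35 genes and 4.92% of all genes without the block, and 6 of 35 and 13.2% with it. For the treatments, intervals and p-values of single genes are from the fit without the block unless it is named. They therefore count differences between the sets as spread. With the block the limma adjusted p was 0.2123 for Fasn, 0.3099 for Elovl6 and 0.2996 for Idi1. It was 0.2292 for Tm7sf2, 0.2851 for Insig2 and 0.2836 for Dhcr7. The mean was above the control for 22 of the 35 genes, against 53% of all genes.

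**Figure D1:**
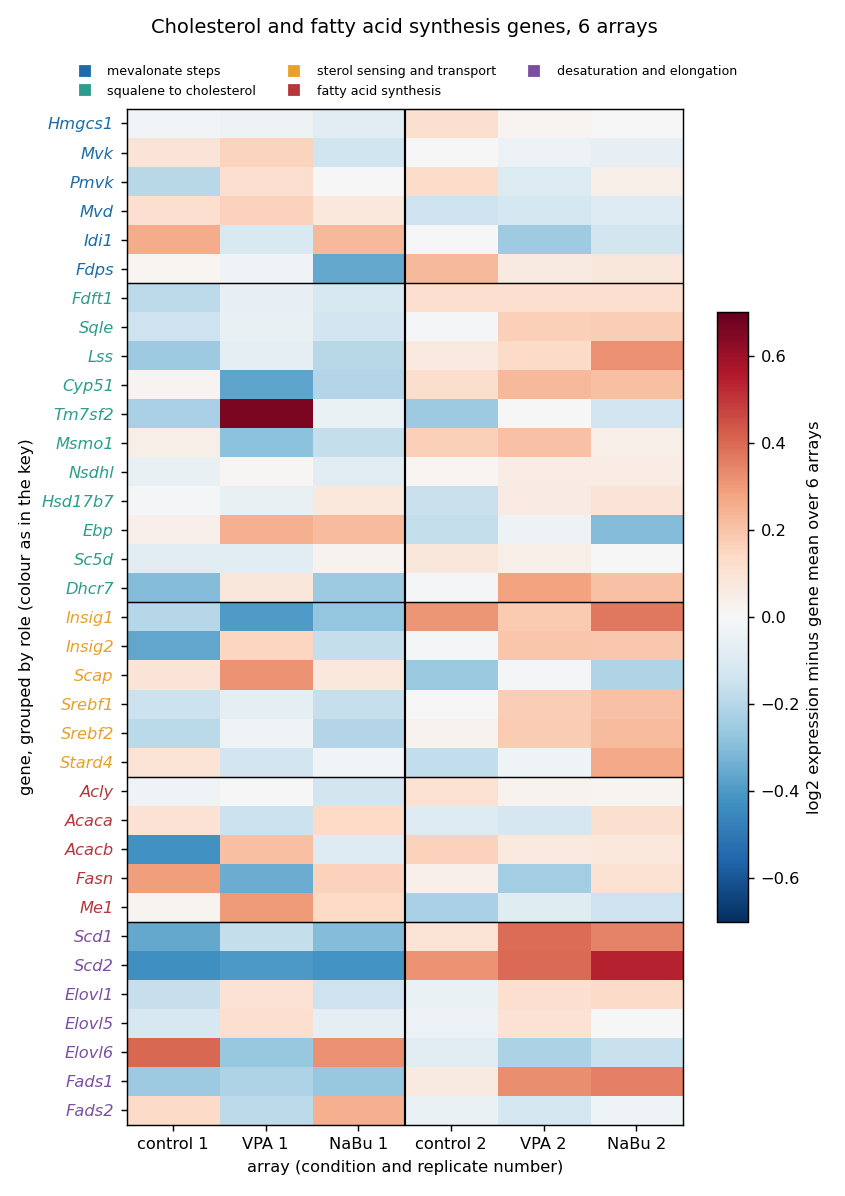
Log2 expression of the 35 genes on each of the 6 arrays, as the difference from the gene's own mean over the arrays (colour scale), with set 1 left and set 2 right of the vertical line and the genes ordered by role. Scd1, Scd2, Fads1 and Insig1 are below their mean on the 3 arrays of set 1 and above it on the 3 arrays of set 2, while Tm7sf2 stands out on the array VPA 1 and Fasn is below its mean on both VPA arrays.

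In the mevalonate steps Hmgcs1, the synthase that makes HMG-CoA and carries the motif shown above, was 9.66 and 9.79 in control, 9.64 and 9.70 in VPA and 9.61 and 9.67 in NaBu (set 1, then set 2, here and below). The groups of Hmgcs1 overlapped, and its VPA difference was -0.05 (95% interval -0.34 to 0.23). Idi1, which isomerises the isoprenoid unit, was 9.22 and 8.96 in control, 8.85 and 8.71 in VPA and 9.19 and 8.83 in NaBu. Both VPA values of Idi1 were below both control values, with a difference of -0.31 (-0.72 to 0.10). A second Idi1 probeset gave -0.34. Fdps, which joins the isoprenoid units to farnesyl diphosphate, was 8.96 and 9.17 in control and 8.92 and 9.01 in VPA, which overlapped, with a difference of -0.10 (-0.53 to 0.33). Mvk, mevalonate kinase, was 6.96 and 6.87 in control and 7.03 and 6.83 in VPA, so that the VPA values lay on either side of the control values. Of the 6 genes of these steps 3 stood above the control mean, and the median difference was -0.02.

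Between squalene and cholesterol the highest VPA difference was that of Tm7sf2, a sterol C14 reductase. Tm7sf2 was 7.13 and 7.10 in control, 8.02 and 7.36 in VPA and 7.31 and 7.23 in NaBu. Both VPA arrays were above both control arrays, but the array of set 1 was the higher by far: the VPA difference was 0.89 in set 1 and 0.26 in set 2. The mean difference of Tm7sf2 was 0.57 (0.05 to 1.10, unadjusted p 0.0367, limma adjusted p 0.964). Dhcr7, the last reductase of the pathway, was 7.65 and 7.94 in control and 8.03 and 8.23 in VPA. Its groups did not overlap, and the difference of 0.34 (-0.14 to 0.81) was 0.39 in set 1 and 0.29 in set 2.

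The other enzymes of this stretch lay closer to the control. Sqle, the squalene epoxidase and a rate-limiting enzyme of the pathway, was 8.81 and 8.94 in control, 8.90 and 9.12 in VPA and 8.81 and 9.12 in NaBu. Cyp51, the lanosterol demethylase, was 8.01 and 8.11 in control, 7.62 and 8.22 in VPA and 7.79 and 8.20 in NaBu. The VPA values of Cyp51 lay on either side of the control, with -0.38 in set 1 and 0.11 in set 2. Msmo1, a sterol methyl oxidase, was 10.72 and 10.85 in control, 10.40 and 10.89 in VPA and 10.52 and 10.73 in NaBu, with VPA differences of -0.33 and 0.03. Fdft1, the squalene synthase, had 2 probesets that differed in sign, at 0.06 for the probeset used and -0.04 for the other. Of the 11 genes 8 stood above the control mean, and the median VPA difference was 0.08.

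Among the genes of sterol sensing, Insig2, a retention protein for Scap, was 8.41 and 8.77 in control, 8.93 and 8.98 in VPA and 8.62 and 8.97 in NaBu. Both VPA values of Insig2 were above both control values, with 0.52 in set 1, 0.20 in set 2 and a mean difference of 0.36 (-0.07 to 0.79). Its relative Insig1, which is itself a target of SREBP, was 9.25 and 9.76 in control, 9.06 and 9.63 in VPA and 9.18 and 9.82 in NaBu. For Insig1 the groups overlapped, and the difference was -0.16 (-0.89 to 0.57). The transcription factor genes stayed near the control: Srebf1 was 7.65 and 7.80 in control, 7.73 and 7.97 in VPA and 7.64 and 8.01 in NaBu. Srebf2, whose product acts mainly on sterol genes, was 9.34 and 9.56 in control, 9.51 and 9.71 in VPA and 9.33 and 9.75 in NaBu. The VPA difference of Srebf1 was 0.13 (-0.29 to 0.54) and that of Srebf2 was 0.16 (-0.28 to 0.60).

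In fatty acid synthesis Fasn, the multi-enzyme that builds palmitate, was 9.07 and 8.82 in control, 8.44 and 8.54 in VPA and 8.94 and 8.89 in NaBu. Both VPA arrays were below the other 4 arrays. The difference from control was -0.46 (-0.78 to -0.13), -27.2% on the linear scale, with -0.64 in set 1 and -0.28 in set 2 (unadjusted p 0.0131, limma adjusted p 0.964). Acly, which makes cytosolic acetyl-CoA from citrate, was 10.05 and 10.18 in control, 10.08 and 10.10 in VPA and 9.95 and 10.09 in NaBu, and its VPA values lay between the control values. Me1, the malic enzyme that supplies NADPH, was 9.29 and 9.05 in control, 9.58 and 9.19 in VPA and 9.41 and 9.13 in NaBu. The groups of Me1 overlapped, while VPA stood higher within each set, by 0.28 and 0.14. A second probeset of Me1 gave a VPA difference of 0.19, beside 0.21 for the probeset used.

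Elovl6, the elongase that lengthens palmitate, was 9.93 and 9.45 in control, 9.27 and 9.31 in VPA and 9.85 and 9.38 in NaBu. The VPA values of Elovl6 were the 2 lowest of the 6, and the difference of -0.40 (-0.93 to 0.13) was -0.66 in set 1 and -0.14 in set 2. Scd1 and Scd2, the desaturases that turn saturated into monounsaturated fatty acids, differed by 0.24 (-0.47 to 0.95) and 0.06 (-0.97 to 1.08). Their arrays, given with the replicate sets below, overlapped between VPA and control.

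VPA and control did not overlap, with VPA higher, for 5 of the 35 genes (Tm7sf2, Dhcr7, Insig2, Elovl1 and Elovl5), or 14.3%, against 19.1% of all genes. VPA was lower without overlap for 5 genes (Idi1, Acaca, Fasn, Elovl6 and Fads2), or 14.3%, against 15.6%. Both shares were below those of all genes. These counts of overlap, like those with NaBu below, take no account of the replicate number. For the second Acaca probeset VPA and control overlapped, at 6.747 and 6.414 in VPA and 6.985 and 6.558 in control. Within both sets VPA stood above its control for 18 genes (51.4%, against 32% of all genes) and below it for 9 genes (25.7%, against 28%). The calls moved when single arrays were left out of the fit with the replicate block. Without control 2 limma called 7 genes, none of the 35. Without the array VPA 2, which leaves 1 residual degree of freedom, limma called 774 genes (3.88%), among them Elovl6 (-0.66, adjusted p 0.037) and Tm7sf2 (0.87, adjusted p 0.0141). Beside these values, 7 of the 8 stem cell markers stood below the control with VPA (median -0.30, none called). Of the 14 fibroblast markers 9 stood above it, with a difference of their mean of -0.07 in set 1 and 0.21 in set 2, and the part of either in the differences was not tested.

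**Figure D2:**
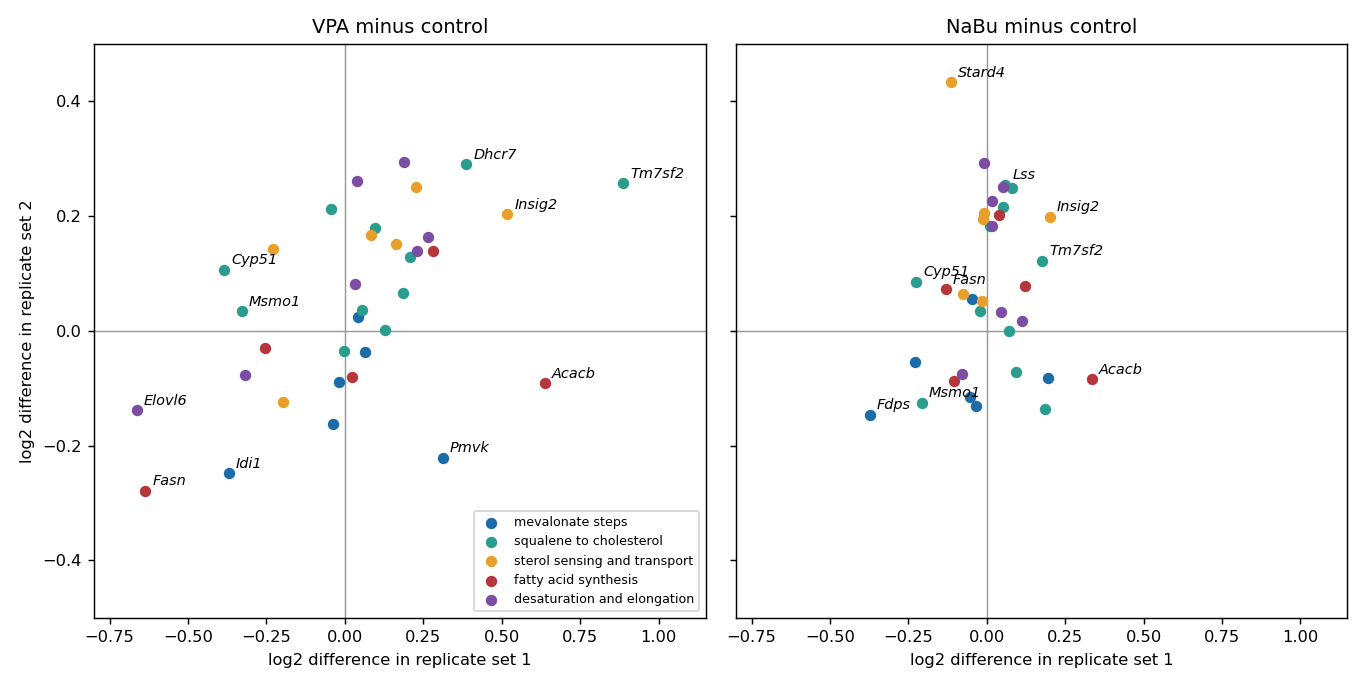
Log2 difference from the control of the same replicate number, in set 1 (horizontal axis) and in set 2 (vertical axis), for VPA (left) and NaBu (right); each point is 1 gene, coloured by role. With VPA, Tm7sf2 lies at 0.89 and 0.26 and Fasn at -0.64 and -0.28, and with NaBu the farthest point on the set 2 axis is Stard4, at 0.43.

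With NaBu again no gene of the group passed the test. The differences ran from -0.26 for Fdps to 0.20 for Insig2. Within set 1 they ran from -0.37 to 0.33, against -0.66 to 0.89 for VPA, and within set 2 from -0.15 to 0.43, against -0.28 to 0.29 for VPA. limma called 0 of the 35 genes and 0% of all genes, with and without the block. At an unadjusted p under 0.05 there were 0 of 35 genes both times, against 1.56% of all genes without the block and 4.59% with it. The mean stood above the control for 25 of 35 genes, against 54.3% of all genes, and the median difference was 0.06, against 0.01. Values of NaBu and of VPA are differences from the same 2 control arrays, so the comparisons are not independent.

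Fdps was 8.58 and 9.02 in NaBu, beside 8.96 and 9.17 in control, and the low array was that of set 1. The groups overlapped, and the difference was -0.26 (-0.69 to 0.17), with -0.37 in set 1 and -0.15 in set 2. Mvk was 6.73 and 6.81 in NaBu, below both control values of 6.96 and 6.87, with a difference of -0.14 (-0.45 to 0.16). Msmo1 overlapped and differed by -0.17 (-0.62 to 0.29). Hsd17b7, a sterol ketone reductase, was 7.77 and 7.62 in control, 7.72 and 7.83 in VPA and 7.85 and 7.87 in NaBu. Both NaBu values of Hsd17b7 were above both control values, with a difference of 0.16 (-0.12 to 0.45).

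Insig2 stood 0.20 above its control in each set, with an interval of -0.23 to 0.63 around the mean difference of 0.20. Stard4, a carrier that moves cholesterol through the cytosol, was 8.44 and 8.17 in control, 8.21 and 8.31 in VPA and 8.32 and 8.61 in NaBu. The NaBu arrays of Stard4 lay on both sides of control 1, with -0.11 in set 1 and 0.43 in set 2. The mean difference of Stard4 was 0.16 (-0.22 to 0.54), and with the replicate block it was -0.07 without control 2 and -0.02 without NaBu 2, so its direction rested on set 2. Fasn, with 8.94 and 8.89 in NaBu, lay within the control range, with a difference of -0.03 (-0.35 to 0.29).

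NaBu and control did not overlap, with NaBu higher, for 3 genes (Tm7sf2, Hsd17b7 and Acaca), or 8.57%, against 12.7% of all genes. NaBu was lower without overlap for 1 gene (Mvk), or 2.86%, against 11.2%. Within both sets NaBu stood above its control for 13 genes (37.1%, against 29.1% of all genes) and below it for 7 (20%, against 23.1%). Acaca, the cytosolic acetyl-CoA carboxylase, depended on the probeset: its NaBu difference was 0.12 for the probeset used and -0.22 for the other. For VPA those values were -0.14 and -0.19. The fibroblast markers stood above the control with NaBu for 12 of 14 genes, with a difference of their mean of 0.09 in set 1 and 0.29 in set 2, and their part in the values of NaBu was not tested.

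Set against each other at these unequal doses, VPA and NaBu gave no call either. limma called 0 of the 35 genes and 0% of all genes between them, with and without the block. At an unadjusted p under 0.05 there was 1 of 35 genes, Fasn, against 3.63% of all genes, and 3 genes (Tm7sf2, Acaca and Fasn) with the block, against 10.8%. Fasn was lower in VPA by -0.43 (-0.75 to -0.11, unadjusted p 0.0173, adjusted p 0.998), and the 2 groups did not overlap. Tm7sf2 was higher in VPA by 0.42 (-0.10 to 0.95). VPA stood above NaBu without overlap for 3 genes (Mvk, Tm7sf2 and Elovl5), or 8.57%, against 16% of all genes. It stood below NaBu for 6 (17.1%, against 14.6%): Hsd17b7, Stard4, Acaca, Fasn, Elovl6 and Fads2. The second Acaca probeset overlapped, at 6.75 and 6.41 in VPA and 6.64 and 6.47 in NaBu. With the mean of all probesets the Acaca difference was -0.12, beside -0.26 for the probeset used. Without the array VPA 2 and with the block, 363 genes (1.82%) were called, and Tm7sf2 was among them (0.72, adjusted p 0.0446).

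**Figure D3:**
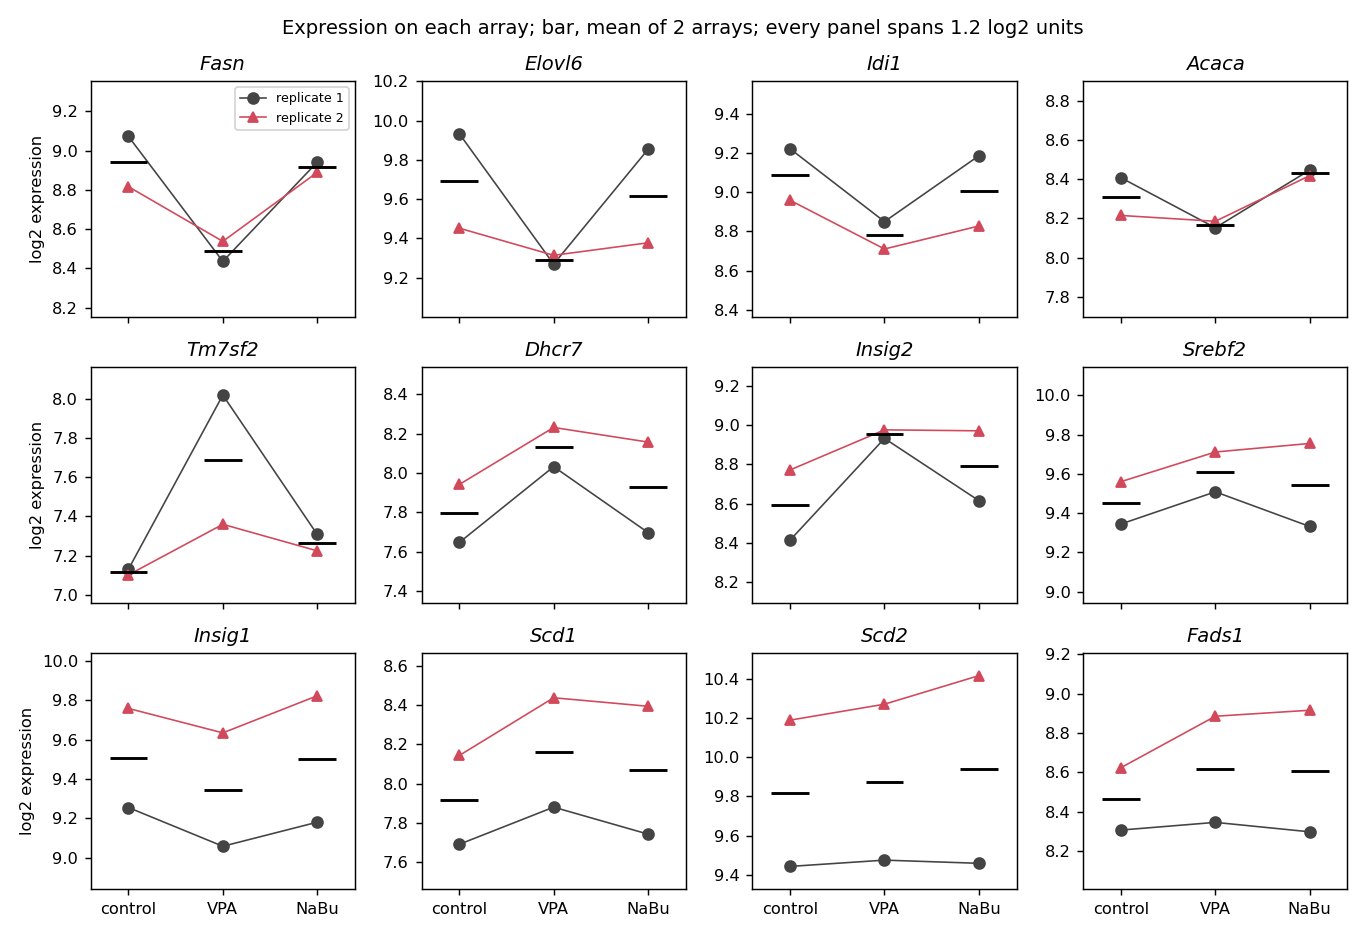
Log2 expression on each array (points joined within a replicate number, circles for replicate 1 and triangles for replicate 2; bars, mean of 2 arrays) of 12 genes, each panel spanning 1.2 log2 units. Both VPA arrays of Fasn lie below the other 4, and in the bottom row (Insig1, Scd1, Scd2, Fads1) every triangle lies above every circle.

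The differences that passed the test lay between the replicate sets. This comparison set 3 arrays against 3, and each treatment comparison set 2 against 2, so their calls cannot be weighed against each other. Scd2, Insig1, Scd1 and Fads1 were higher in set 2 than in set 1 in all 3 conditions. limma, with the condition as a term, called 4 of the 35 genes, or 11.4%, which is near the 11.6% called among all genes. All 4 were higher in set 2, where 6.04% of all genes were called, and no gene of the group was called lower, against 5.56%.

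Scd2 was 9.44, 9.48 and 9.46 in the control, VPA and NaBu arrays of set 1, and 10.19, 10.27 and 10.41 in those of set 2. The sets were far apart, by 0.83 (0.62 to 1.04, adjusted p 0.0018), or 77.9% on the linear scale. Scd1 was 7.69, 7.88 and 7.74 in set 1 and 8.14, 8.44 and 8.39 in set 2, again without overlap, with a difference of 0.55 (0.34 to 0.76, adjusted p 0.00906). Fads1, the delta-5 desaturase of polyunsaturated fatty acids, was 8.31, 8.34 and 8.30 in set 1 and 8.62, 8.88 and 8.92 in set 2, and was higher in set 2 by 0.49 (0.27 to 0.72, adjusted p 0.0176). Elovl6 stood lower in set 2 in control and NaBu, by -0.48 in each, and was 0.04 higher in set 2 in VPA. Fads2, the delta-6 desaturase, differed by -0.13 (-0.36 to 0.09, adjusted p 0.452).

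Insig1 was higher in set 2 by 0.50 in control, 0.58 in VPA and 0.64 in NaBu, and its mean difference was 0.57 (0.37 to 0.78, adjusted p 0.00724). The escort Scap was 8.14, 8.37 and 8.12 in set 1 and 7.79, 8.04 and 7.84 in set 2. Scap was thus lower in set 2 in every condition and did not overlap, but its difference of -0.32 (-0.52 to -0.12) had an adjusted p of 0.0505. Srebf2 stood higher in set 2 by 0.28 (0.07 to 0.49, adjusted p 0.0943) and Srebf1 by 0.25 (0.04 to 0.46, adjusted p 0.119), both without overlap of the sets.

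Of the enzymes between squalene and cholesterol, Ebp, the sterol isomerase, was 7.66, 7.86 and 7.84 in set 1 and 7.45, 7.58 and 7.32 in set 2. Every array of set 2 was lower, with a difference of -0.34 (-0.57 to -0.11, adjusted p 0.0647). Cyp51 stood higher in set 2 by 0.37 (0.11 to 0.63, adjusted p 0.0711) and Sqle by 0.22 (0.01 to 0.43, adjusted p 0.161). In the mevalonate steps the differences went both ways, from -0.25 for Idi1 to 0.24 for Fdps. Me1 was lower in set 2 in all conditions, by -0.30 (-0.51 to -0.10, adjusted p 0.0637), and Fasn differed by -0.07 (-0.30 to 0.16) between the sets.

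Set 2 was higher without overlap for 15 of the 35 genes, or 42.9%, against 13.5% of all genes, and lower without overlap for 4 (Mvd, Ebp, Scap and Me1), or 11.4%, against 13.7%. The 15 genes came from every role: Hmgcs1 and Fdps, then Fdft1, Sqle, Lss, Cyp51, Msmo1 and Nsdhl, then Insig1, Srebf1 and Srebf2, then Acly, and last Scd1, Scd2 and Fads1. At an unadjusted p under 0.05 there were 20 genes (57.1%), against 26.5% of all genes. Of these, 14 (40%) were higher in set 2, against 13.2%, and 6 (17.1%) were lower, against 13.2%. The mean stood higher in set 2 for 23 genes (65.7%), against 51.3%. The median difference over the 35 genes was 0.09, against 0.01 over all genes, with role medians of -0.01 for the mevalonate steps, 0.22 from squalene to cholesterol, 0.25 for sensing and transport, -0.06 for fatty acid synthesis and 0.13 for desaturation and elongation. As a share of a gene's variance over the 6 arrays, the sets held a median of 54.6% for the 35 genes and 27.5% for all genes, and the conditions held 27.7% and 33.2%. With 2 sets and 3 conditions, spread alone does not give the sets and the conditions equal shares, so these are not to be weighed against each other directly. The share of the sets ran from 0.1% for Hsd17b7 to 97.5% for Scd2, and it was 2.3% for Fasn, whose variance lay between the conditions (87%). All 35 genes lay at or above the median level of all genes, where calls between the sets were more frequent. With only those 9969 genes tested, 2644 (26.5%) were called at an adjusted p under 0.05, against 11.6% with all genes tested. The other shares in this paragraph are against all genes and were not computed for those genes alone.

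Fibroblast markers moved with the same sets. Of the 14 markers 13 stood higher in set 2 (92.9%, against 51.3% of all genes) and 8 were called higher (57.1%, against 6.04%), with Dcn, a matrix proteoglycan, higher by 2.29 and the collagen gene Col1a1 by 1.10. Of the 8 stem cell markers 7 stood lower, and Nanog was called (-0.47, adjusted p 0.0269). Of the 10 endoderm markers 5 stood higher in set 2, and Dab2 (0.70) and Pdgfra (0.81) were called. The part of the fibroblast, stem cell and endoderm markers in the differences of the 35 genes was not tested. The count of calls moved with the setting: it was 7 genes after median centring (12.9% of all genes), 11 where only genes at or above the median level were tested (26.5%) and 13 with a variance trend (14.9%). Without either NaBu array, which takes its pair out of the set comparison, 716 genes (3.59%) and 2 of the 35, Insig1 and Scd2, were called. Scd1 was then 0.50 (adjusted p 0.0615) and Fads1 0.43 (adjusted p 0.105).

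**Figure D4:**
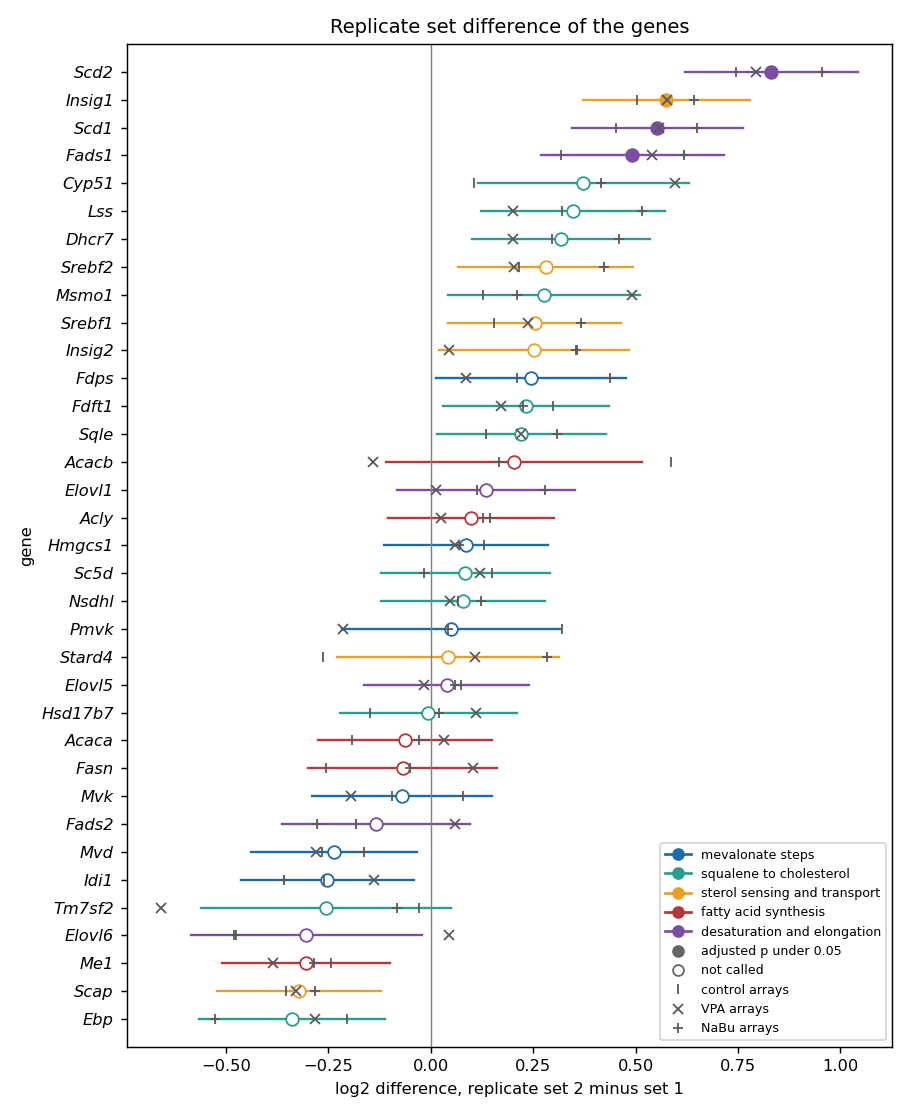
Log2 difference between set 2 and set 1 of the 35 genes (circles, mean over the 3 conditions with its 95% interval; small marks, the difference within control, VPA and NaBu), coloured by role and filled where the adjusted p was under 0.05. The 4 filled circles, Scd2 at 0.83, Insig1 at 0.57, Scd1 at 0.55 and Fads1 at 0.49, are all to the right of 0, and Ebp (-0.34), Scap (-0.32) and Me1 (-0.30) stand farthest to the left.

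Other genes of the same pathways were taken from lists of 24 sterol and 24 fatty acid genes, of which 15 and 22 were measured. The rest were not analysed here. With VPA 11 of the 15 sterol genes and 16 of the 22 fatty acid genes stood above the control (73.3% and 72.7%, against 53% of all genes) and 0 were called by limma, with and without the block. The sterol genes ran from Abca1 (-0.39), a cholesterol exporter, and Tmem97 (-0.23) to Mylip (0.43), a ubiquitin ligase, and Scarb1 (0.45), the receptor for high-density lipoprotein. The fatty acid genes ran from Acsl5 (-0.47) and Lpin1 (-0.20) to Dgat2 (0.82), which makes triglycerides, and Elovl2 (0.84), an elongase of very long polyunsaturated chains. With NaBu 0 of these genes were called, and the values ran from Rnf139 (-0.13) and Osbp (-0.09) to Vldlr (0.17) and Nr1h3 (0.22), and from Fabp5 (-0.12) and Mid1ip1 (-0.05) to Elovl2 (0.33) and Fads3 (0.43). Between the sets 4 of the 15 sterol genes were called (26.7%, against 11.6% of all genes), all higher in set 2: Vldlr (1.52), Abca1 (0.76), Abcg1 (0.54) and Npc1 (0.34). Another 6 of the 15 stood lower in set 2, lowest for Tmem97 (-0.26) and Erlin1 (mean 7.75 in set 1 and 7.55 in set 2). Of the 22 fatty acid genes 2 were called (9.09%, against 11.6%), Slc25a1 (0.45), the citrate carrier of mitochondria, and Fads3 (0.41), while the lowest were Fabp5 (-0.38) and Agpat2 (-0.28).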

How the data were processed

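The authors deposited log2 expression for each probeset and array, computed with RMA, and the submitters' processing notes name Affymetrix Expression Console 1.1. For RMA settings, library files and build, the sources used here give nothing. Of 35556 probesets, 21789 carried 1 gene symbol in the array annotation. Where several probesets shared a symbol (999 of 19938 genes), the one with the highest mean was used.

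Tests were run in limma 3.58.1 (R 4.3.3; lmFit, eBayes) over all 6 arrays, with Benjamini-Hochberg adjustment over all genes at 0.05. The replicate sets were compared with the condition as a term. The number of arrays limits the precision. Arrays of the same number shared their deviations from the group means (r across genes 0.558, 0.693 and 0.567 for control with VPA, control with NaBu and VPA with NaBu), so a fit with the replicate number as a block was added. This pairing was read from the values and not from the labels.

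Per-array values are given for the 3 genes with the largest and the 3 with the smallest moderated statistic in VPA against control, NaBu against control and the sets, and for Hmgcs1, Idi1, Sqle, Cyp51, Insig1, Srebf1, Srebf2, Fasn, Acly, Scd1, Scd2 and Me1. In the further lists the 2 largest and 2 smallest differences and all called genes are named. The genes, lists and rules were chosen with earlier results of these data known. Alternatives were median centring, quantile normalization, genes at or above the median level, eBayes with trend, the mean of all probesets and leaving out each array. The procedure was tested on simulated data. Names and promoter sequences are from RefSeq GRCm38.p6.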

Additional observations from a re-analysis of the deposited data

How the results depend on the processing

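With the replicate block, limma called 0 genes for VPA, NaBu and VPA against NaBu, as without it, and the medians were the same, since the design is balanced. The median VPA difference of the 35 genes was 0.0202 after median centring, 0.0765 after quantile normalization and 0.0463 with the mean of all probesets, and ran from -0.0083 to 0.1084 without single arrays. Without single arrays the genes called numbered 0 to 774 for VPA (0 to 2 of the 35), 0 to 1 for NaBu and 0 to 363 for VPA against NaBu (0 to 1 of the 35). The medians then ran from -0.0409 to 0.1066 for NaBu and from -0.0582 to 0.1384 for VPA against NaBu, so the sign of these medians is not settled. These ranges pool fits with and without the block, and the medians below 0 came from fits without it. With the block the medians without single arrays ran from 0.0242 to 0.0563 for NaBu. For VPA against NaBu they ran from 0.0061 to 0.0823, while median centring of all 6 arrays gave -0.0066. The NaBu difference of Stard4 ran from -0.0697 to 0.3894, and its other value below 0 was -0.021. Between the sets 7 of the 35 genes were called after median centring, 11 after a filter on dim genes and 13 with a variance trend, against 4. Scap, Me1 and Ebp were called lower in these 3 settings. Leaving out single arrays gave 716 to 2434 genes, 2 to 6 of the 35 and a median of 0.0767 to 0.1364, and quantile normalization gave a median of 0.1347. Where an array is left out, the lone array of its group is assumed to vary like the other groups. With 2 arrays per group, a missing call does not show that a gene was unaffected.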

Other observations

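The genes named here are from the further sterol genes and were chosen after their values were seen. Between the replicate sets 3 of the 4 called genes of that list had these values, while the other 11 of the 15 were not called, among them Scarb1 (0.31, 0.02 to 0.60, limma adjusted p 0.168) and Npc2 (0.20, -0.02 to 0.41, adjusted p 0.227). Vldlr, a lipoprotein receptor, was 6.67, 6.32 and 6.55 in the control, VPA and NaBu arrays of set 1 and 7.81, 8.01 and 8.28 in those of set 2. The sets of Vldlr did not overlap, and it was higher in set 2 by 1.52 (1.22 to 1.81, limma adjusted p 0.000623). Abcg1, a sterol exporter, also kept the sets apart, with a difference of 0.54 (0.34 to 0.75, adjusted p 0.00845). Npc1, which moves cholesterol out of lysosomes, was 7.62, 7.71 and 7.67 in set 1 and 7.91, 8.14 and 7.98 in set 2, and was higher by 0.34 (0.14 to 0.55, adjusted p 0.0441).

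With VPA, Mylip was 6.67 and 6.60, beside a control mean of 6.20 ± 0.28 (SD, n = 2), and Scarb1 was 8.85 and 8.81 beside 8.19 and 8.57. Neither group overlapped its control, and neither gene was called (0.43, 0.01 to 0.85, for Mylip and 0.45, -0.10 to 0.99, for Scarb1; adjusted p 0.964 for both). Abca1 had its lowest value, 6.39, on the array VPA 1, against 6.99 to 7.83 on the other 5 arrays.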
